A study of Mus musculus with 4 samples.

Results

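SOX3 binding was examined at 8 genes used as markers of radial glia and neural progenitors, namely Nes, Vim, Gfap, Fabp7, Slc1a3, Prom1, Msi1 and Msi2, out of 22367 protein-coding genes annotated on mm9. The genes were chosen by name, with earlier results of these data known. Each peak that overlapped the gene body or the 50 kb to either side of it was taken from the lists of 3 replicates. SOX3 ChIP-Seq had been performed on neural progenitor (NP) cells, which were made from R1 embryonic stem cells, a single mouse line, by 4 days in N2B27, a serum-free neural induction medium. SOX3-bound chromatin was recovered with the R&D hSOX3 antibody (AF2569), a goat polyclonal to the human protein, and a sample without this antibody served the authors as input. All 3 replicates, labelled as biological replicates, had the same line, medium, time and antibody, and neither the input nor any sample that lacked SOX3 was analysed here. Expression was not measured, so whether the 8 genes were transcribed in these cells cannot be read from the data.

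Radial glia are the elongated progenitors of the developing nervous system, and their markers include cytoskeletal, metabolic, transport and RNA-binding proteins. SOX3 belongs with SOX1 and SOX2 to the SOXB1 factors, which bind short AT-rich core sequences through an HMG domain, often next to a POU factor at an octamer. The enhancer in intron 2 of Nes is a well-known example in which SOXB1 and POU factors bind side by side, and the peak there was taken as the reference point for the other genes.

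Peaks of different replicates that shared at least 1 bp were merged into a region. The score of a peak is 10 times the negative log10 of its MACS p-value against the input, so the threshold of 1e-05 corresponds to a score of 50. Scores depend on library depth, which is unknown because the lists hold no read counts, and they were therefore turned into percentiles, the position of a peak in the score order of its own list (100 is the highest score). The lists held 18816, 8096 and 40543 peaks in replicates 1, 2 and 3, with median scores of 77.4, 82.3 and 63.6, so a given percentile stands for a different score in each. At Msi1, for example, a score of 80.21 was at percentile 48.41 in replicate 2 and a score of 81.09 at 71.21 in replicate 3. Distances are given from the start of the transcript with the longest coding sequence to the middle of the region.

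Sequences are shown for the reference region and another upstream of Nes, for regions at Slc1a3, Msi1 and Msi2 that differ in the SOX and POU words they hold, and for a peak at the Fabp7 promoter that was called in 1 replicate only. They are written 5′ to 3′ on the plus strand of mm9 (NCBIM37), and each covers the bases shared by the peaks of its region, limited to the middle 300 bases where that stretch was longer. Capitals mark the SOX word AACAAA or its close form AACAAT, the related word GACAAA or its close form GACAAT, and the POU octamer ATGCAAAT or its close form ATGCTAAT, on either strand.
Nes intron 2, chr3:87778273-87778572: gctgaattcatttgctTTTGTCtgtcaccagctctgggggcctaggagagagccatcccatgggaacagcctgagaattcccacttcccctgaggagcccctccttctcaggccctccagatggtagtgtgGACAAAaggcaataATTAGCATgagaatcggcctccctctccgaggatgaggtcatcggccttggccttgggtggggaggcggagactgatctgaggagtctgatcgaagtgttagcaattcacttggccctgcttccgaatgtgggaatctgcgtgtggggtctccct
Nes 12.8 kb upstream, chr3:87762015-87762314: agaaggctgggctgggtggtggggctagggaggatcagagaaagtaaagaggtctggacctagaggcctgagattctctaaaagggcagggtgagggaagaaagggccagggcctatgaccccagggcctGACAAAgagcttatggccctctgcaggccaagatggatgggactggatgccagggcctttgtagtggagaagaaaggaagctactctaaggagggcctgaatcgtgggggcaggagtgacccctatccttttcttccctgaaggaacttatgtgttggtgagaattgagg
Slc1a3 10.4 kb upstream, chr15:8671072-8671320: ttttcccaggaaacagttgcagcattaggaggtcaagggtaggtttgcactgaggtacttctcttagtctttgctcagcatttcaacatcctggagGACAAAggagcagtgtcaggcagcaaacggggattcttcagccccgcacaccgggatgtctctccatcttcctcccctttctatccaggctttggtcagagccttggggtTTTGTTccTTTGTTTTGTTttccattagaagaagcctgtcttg
Msi1 25.1 kb upstream, chr5:115854361-115854660: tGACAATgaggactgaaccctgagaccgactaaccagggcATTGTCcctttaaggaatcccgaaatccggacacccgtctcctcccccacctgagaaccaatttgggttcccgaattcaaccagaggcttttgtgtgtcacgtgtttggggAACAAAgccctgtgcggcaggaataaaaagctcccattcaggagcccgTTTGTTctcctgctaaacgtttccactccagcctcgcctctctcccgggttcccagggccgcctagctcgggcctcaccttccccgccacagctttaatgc
Msi1 31 kb upstream, chr5:115848526-115848740: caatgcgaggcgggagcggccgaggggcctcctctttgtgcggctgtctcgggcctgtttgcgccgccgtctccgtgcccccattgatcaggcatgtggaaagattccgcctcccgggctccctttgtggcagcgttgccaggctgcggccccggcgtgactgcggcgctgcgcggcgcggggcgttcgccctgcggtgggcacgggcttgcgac
Msi2 intron 6, chr11:88347834-88348133: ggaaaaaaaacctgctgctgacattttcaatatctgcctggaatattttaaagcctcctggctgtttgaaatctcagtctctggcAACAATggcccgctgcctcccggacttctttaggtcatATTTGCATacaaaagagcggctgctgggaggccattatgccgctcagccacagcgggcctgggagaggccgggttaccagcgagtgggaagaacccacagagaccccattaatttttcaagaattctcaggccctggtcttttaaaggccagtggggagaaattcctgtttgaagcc
Msi2 intron 5, chr11:88564526-88564614: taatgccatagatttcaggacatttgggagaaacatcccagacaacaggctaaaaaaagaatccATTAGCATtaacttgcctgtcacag
Fabp7 promoter, chr10:57504292-57504591: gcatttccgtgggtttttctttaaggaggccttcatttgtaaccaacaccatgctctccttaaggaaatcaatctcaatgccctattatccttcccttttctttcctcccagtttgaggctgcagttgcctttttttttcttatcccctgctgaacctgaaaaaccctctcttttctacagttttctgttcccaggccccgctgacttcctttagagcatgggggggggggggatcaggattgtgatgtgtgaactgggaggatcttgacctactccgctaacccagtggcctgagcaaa

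The 8 windows held 96 peaks, of which 36 came from replicate 1, 16 from replicate 2 and 44 from replicate 3. After merging, they formed 59 regions, and 15 of these (25.4%) had a peak in every replicate, compared with 5358 of 51271 regions (10.5%) in the whole series. Peaks in every replicate were found at 5 of the 8 genes, Nes, Slc1a3, Prom1, Msi1 and Msi2, and at none of the other 3, Vim, Gfap and Fabp7. By the same rule, 28.8% of all protein-coding genes had such a region. A peak in at least 1 replicate was present at all 8 genes, but also at 90.6% of all protein-coding genes, so a peak of a single replicate within this distance sets few genes apart.

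The regions were unevenly spread over the genes. The windows covered 1474 kb and held 1.02 regions with a peak in every replicate per 100 kb, against 0.202 in the whole genome, a ratio of 5.04 that was not tested. The genome value counts all bases of the chromosomes, also those far from genes, so it is an unlike background for windows around genes. A pooled value over the windows of all protein-coding genes is not given. Without regions on small nuclear or nucleolar RNA genes, the values were 0.882 and 0.2. The median of the 8 genes was 0.523 per 100 kb. Msi1 had the most with 5 regions (3.97 per 100 kb), followed by Nes with 4 (3.66 per 100 kb), but 2 of those at Msi1 overlap U4 small nuclear RNA genes. Without these 2, Msi1 had 3 (2.38 per 100 kb) and came after Nes. Msi1 and Nes had equal numbers with peaks at a p-value of 1e-10 or less (3 each), and with equal numbers of peaks per list or a reciprocal overlap of 50% (4 each). With a window of 100 kb, Msi2 had 7, Nes 6 and Msi1 5, and inside the gene body Msi2 had 3, Nes 1 and Msi1 0, so the order of the genes depends on these choices. Without replicate 2, Msi1 and Msi2 had 7 each, Nes 4 and Prom1 2. With all 3 replicates and 50 kb to each side, Msi2 had 4, but its window is the longest of the 8 at 526.9 kb, which gives 0.759 per 100 kb. Slc1a3 and Prom1 had 1 region each, or 0.566 and 0.48 per 100 kb. Among all protein-coding genes, 0.814% had at least as many regions as Msi1, 1.35% at least as many as Nes or Msi2, and the median gene had 0. Per 100 kb of window, 0.662% reached the value of Msi1 and 0.769% that of Nes, but 20.2% that of Msi2. Long windows hold a region more often, since the share of genes with one was 22.8% for windows up to 105 kb and 44.7% for windows over 200 kb.

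**Figure D1:**
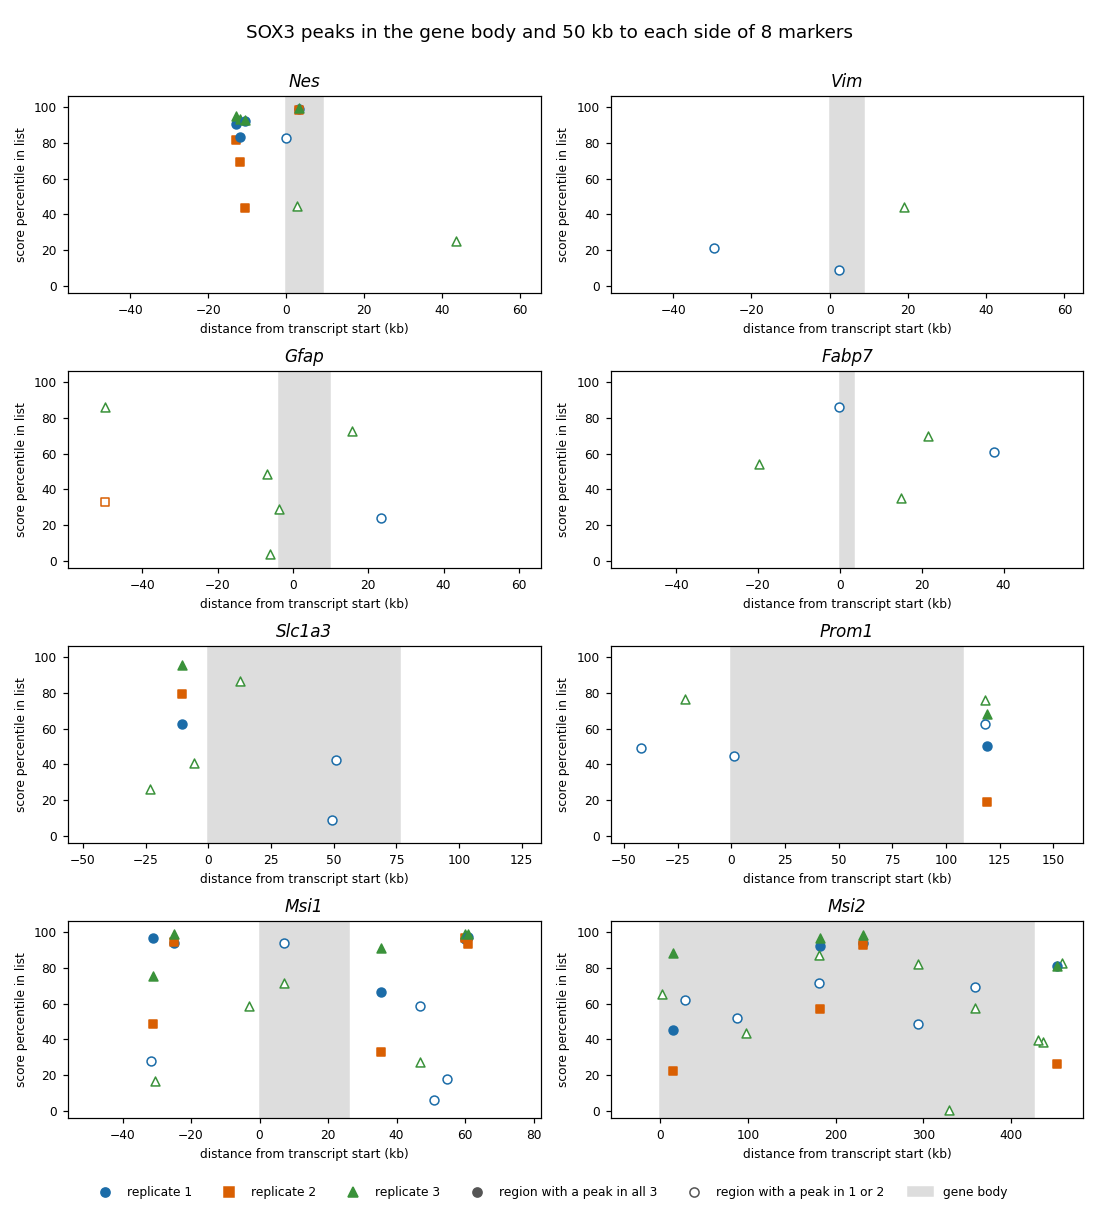
SOX3 peaks at the 8 genes, with the distance of the region from the transcript start in kb on the horizontal axis (positive values lie in the direction of transcription) and the score percentile of each peak within its replicate's list on the vertical axis. Symbols stand for replicates, filled symbols for regions with a peak in all 3 replicates and grey for the gene body; filled symbols are present at Nes, Slc1a3, Prom1, Msi1 and Msi2 and absent at Vim, Gfap and Fabp7.

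Of the 3 intermediate filament genes, Nes had regions with a peak in every replicate and Vim and Gfap had none. Nes encodes Nestin, the intermediate filament protein of neural progenitors, and lies on chr3:87775000-87784373 (plus strand, ENSMUSG00000004891). Its reference region, chr3:87778193-87778667, lay at the 3′ end of intron 2 (87777039 to 87778723), 3.42 kb from the start. The peaks of replicates 1, 2 and 3 scored 953.46, 587.08 and 1026.52, at percentiles of 99.03, 98.11 and 99.55. It was the highest region of the 8 genes in each replicate (SD 0.729 percentile points, n = 3), and a region this close to the upper limit of 100 can have only a small SD. Among the 5358 regions of the whole series with a peak in every replicate, it ranked 149 by its mean percentile of 98.9, and by single replicates it ranked 179, 154 and 184.

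The 3 regions just above it in this order were nearest to BC107364 (78.1 kb), Efnb2 (19.6 kb) and Gm5607 (92.4 kb). The 3 just below were nearest to Epha2 (8.08 kb), Cnot2 (13.2 kb) and Tmem107 (2.83 kb). Their mean percentiles ran from 98.87 to 98.92, which follows from their choice as neighbours in rank. Efnb2 and Epha2 encode an ephrin ligand and an Eph receptor. In the region near BC107364, each 50-base sequence occurs in more than 1 place of the reference (100%), whereas in the Nes region none does (0%).

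Upstream of Nes, 3 further regions with a peak in every replicate lay within 2.75 kb of one another. The first, chr3:87761997-87762399, lay 12.8 kb upstream and had percentiles of 90.36, 81.51 and 95.07 in replicates 1, 2 and 3. The second, chr3:87762998-87763368, lay 11.8 kb upstream and reached 83.17, 68.98 and 93.35. The third, chr3:87764304-87764744, lay 10.5 kb upstream, and while replicates 1 and 3 placed it at 92.02 and 92.89, replicate 2 placed it at 43.74. All 3 were below the intron 2 region in each replicate. The start of Crabp2, which encodes a retinoic acid binding protein, was nearer to the first (9.61 kb) and the second (10.6 kb) than that of Nes, so their assignment to Nes rests on the window alone.

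The Nes promoter itself did not have a peak in every replicate. A region 12 bp from the start, over exon 1, was called in replicate 1 at a percentile of 82.47 and in neither of the others. Intron 2 held another peak, 2.91 kb from the start, in replicate 3 only (44.97). A peak 43.5 kb downstream, also of replicate 3 only, was at 25.19 and lay nearest to Hapln2.

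Vim, which encodes vimentin, the intermediate filament protein that assembles with Nestin, had 3 peaks and no region with more than 1 replicate. In replicate 1, a peak in its intron 2 was at a percentile of 9.131 and another, 29.6 kb upstream and 0.292 kb from the start of Trdmt1, at 21.37. Replicate 2 had no peak in the window, and replicate 3 had 1 at 43.91, located 19.1 kb downstream of the start. All 3 Vim peaks were below the middle of their lists, and the region in intron 2 of Nes was near the top of each.

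Gfap, the intermediate filament gene of astrocytes, had 6 regions, of which 5 were called in a single replicate. The exception was a region 50 kb upstream of the transcript start and 0.442 kb from the start of C1ql1, with percentiles of 33.2 in replicate 2 and 85.75 in replicate 3 and no peak in replicate 1. Nearer to the start, 3 peaks of replicate 3 lay 3.6, 6.17 and 6.89 kb upstream, at percentiles of 28.94, 3.771 and 48.71, the first of them still inside the gene body, in an intron of a non-coding Gfap transcript that starts farther upstream. On the other side, replicate 3 had a peak at 72.41 that lay 0.116 kb from the start of Ccdc103. The last, 23.5 kb from the Gfap start and within Eftud2, belonged to replicate 1 (24.08).

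Fabp7 encodes the brain lipid-binding protein, a fatty acid carrier of radial glia, and had 5 regions, each called in 1 replicate. The highest lay at its promoter, 0.287 kb upstream of the start, where replicate 1 had a peak with a score of 207.82 and a percentile of 85.7. Replicates 2 and 3 had no peak there, although the list of replicate 3 is the longest. Replicate 3 had 3 peaks at 54.44, 35.16 and 69.7, the latter pair within introns of Smpdl3a, and replicate 1 had a further peak 37.7 kb downstream at 61.02. Of the bases printed above for the Fabp7 promoter, none is in capitals.

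Slc1a3 encodes GLAST, the glutamate transporter of radial glia and astrocytes, and had 1 region with a peak in every replicate, chr15:8671009-8671376, located 10.4 kb upstream of the start. Its percentiles were 62.57, 79.05 and 95.54 in replicates 1, 2 and 3, and Slc1a3 was the nearest gene. It ranked 2561 of 5358. The other 5 regions had 1 replicate each, and the highest of them, in intron 2, was at 86.47 in replicate 3. Intron 3 held a pair of replicate 1 peaks at 42.75 and 9.131.

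Prom1 encodes the membrane glycoprotein CD133 and showed the lowest of the 15 regions, chr5:44373711-44373952, with percentiles of 50.15, 18.84 and 67.86 and a rank of 5004. It lay downstream of Prom1, 119 kb from its start but only 0.831 kb from the start of Fgfbp1. A neighbouring region, 1.61 kb from the Fgfbp1 start, was called in replicates 1 and 3 (62.57 and 76.18). Within Prom1, a peak of replicate 1 in intron 1 (44.89) lay 1.08 kb from the Prom1 start and 0.217 kb from that of Gm16401. Both regions with more than 1 replicate in the Prom1 window were thus at the promoter of another gene.

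The Musashi genes encode RNA-binding proteins that control translation in neural progenitors, and together they held 9 of the 15 regions. Msi1 lies on chr5:115879608-115905707 (plus strand, ENSMUSG00000054256), and none of its 5 regions was inside the gene. The region 25.1 kb upstream, chr5:115854277-115854688, had percentiles of 93.87, 94.59 and 99.06 in replicates 1, 2 and 3 and ranked 553. It was the highest at Msi1 among those for which Msi1 was the nearest gene. A second upstream region, chr5:115848371-115848840, lay 31 kb from the start and differed between replicates, with scores of 526.85, 80.21 and 88.06 and percentiles of 96.71, 48.41 and 75.65. This was the only one of the 15 regions with its highest percentile in replicate 1, and in the other 14 it was in replicate 3.

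Downstream of Msi1, 3 regions lay nearer to other genes. One was 1.33 kb from the start of Pla2g1b, with percentiles of 66.28, 32.96 and 91.23. The other two, chr5:115939325-115939865 and chr5:115939912-115940759, lay about 60 kb from the Msi1 start and 4.86 and 5.6 kb from that of Sirt4. They ranked 400 and 462, with percentiles of 96, 96.32 and 98.82 for the former and 97.31, 93.24 and 99.04 for the latter. Each overlapped a U4 small nuclear RNA gene, at 115939468 to 115939608 and 115940263 to 115940403. Of all 5358 regions, 55 (1.03%) overlapped an annotated snRNA or snoRNA gene. Leaving out such regions, a choice made after seeing the data, left 13 regions at the 8 genes and 3 at Msi1 (2.38 per 100 kb).

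Inside Msi1, intron 6 held a region called in replicates 1 and 3 only, at 93.93 and 71.21. Its middle lay 0.05 kb from the start of 4930430O22Rik. Another region of the same replicates, at 58.84 and 27.47, lay 46.9 kb from the Msi1 start.

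At Msi2, chr11:88152884-88579827 (minus strand, ENSMUSG00000069769), 3 of the 4 regions were in introns. Introns are numbered on transcript Msi2-006, which has 14 exons. The highest, chr11:88347808-88348292 in intron 6, 231 kb from the start, reached 94.04, 92.43 and 98.51 in replicates 1, 2 and 3 and ranked 664. Also in intron 6, chr11:88396634-88397237 was high in replicates 1 and 3 (92.08 and 96.7) and near the middle of the list in replicate 2 (56.89).

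The third intronic region, chr11:88564446-88564793 in intron 5, was 14.8 kb from the start and had the widest spread of the 15, with percentiles of 45.43, 22.45 and 87.94 (SD 33.2, n = 3). The fourth, chr11:88127186-88127547, was beyond the end of the gene and nearest to 1700106J16Rik (19.8 kb), with 80.72, 26.22 and 81.06. A further 3 regions in introns of Msi2 had peaks in replicates 1 and 3 and none in replicate 2. Their percentiles in replicates 1 and 3 were 69.06 and 57.7 for the first, 48.89 and 81.81 for the second, and 71.28 and 87.11 for the third.

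**Figure D2:**
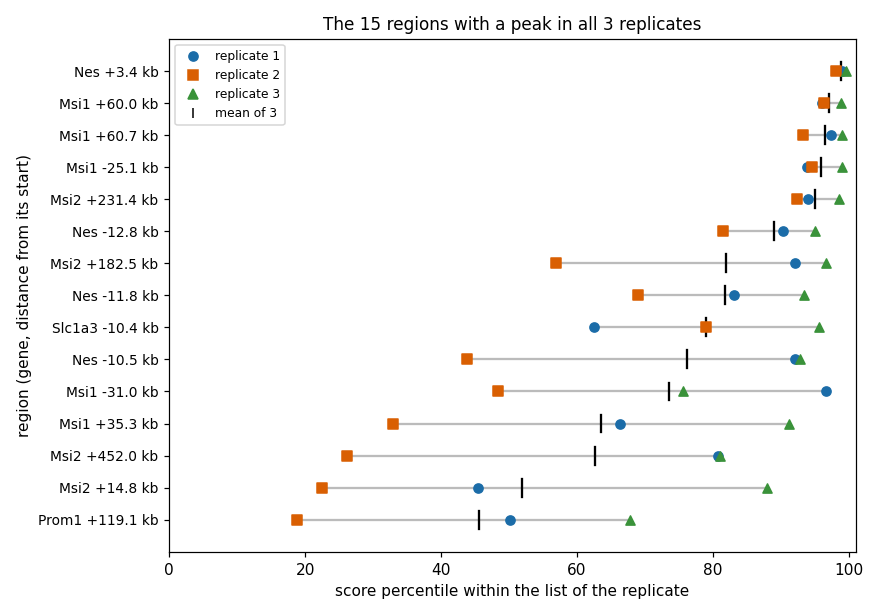
Score percentiles of the 15 regions with a peak in every replicate, ordered by their mean over the 3 replicates (black bar), with the replicates as symbols and grey lines spanning their range. The Nes region at +3.4 kb has the highest mean, close to the upper limit of 100, which leaves little room for a range, and replicate 2 is the lowest in 12 of the 15 regions.

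Across the 15 regions, the percentile was lowest in replicate 2 for 12 regions and in replicate 1 for 3. The medians over replicates 1, 2 and 3 were 92, 69 and 95.1, and those of all 5358 regions were in the same order with 82.6, 65.1 and 92.8. The mean percentile had a median of 81.8 at the 8 genes and 78 over all regions. Of the 15, 3 were in the top 10% of all regions by rank (the Nes intron 2 region and the pair at the U4 genes), and 9 were in the top 50%. The widths ran from 242 to 848 bp with a median of 426 bp, against 401 bp for all regions. In none of the 15 were more than 50% of the 50-base sequences present in more than 1 place of the reference (at most 9.07%), which was the case for 898 of all regions (16.8%).

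By location, 4 of the 15 regions were in introns of the markers (26.7%, 95% Wilson confidence interval 10.9 to 52%), compared with 29.2% of all regions in introns. A further 9 were intergenic (60%, against 51.2%) and none exonic. The remaining 2 (13.3%, against 18%) lay within 2000 bp of a start, in both cases that of another gene. The intervals for the markers are wide and include the values of all regions. They treat the 15 regions as independent, although these came from 5 genes and some lay close together. Upstream of the marker were 6 regions and downstream 5, and the marker had the nearest start for 8 of the 15. None of the 8 genes had a region with a peak in every replicate at its own promoter. Such regions are uncommon in general, with 967 at promoters in the whole series for 22367 protein-coding genes. The share of all genes with one at their own promoter was not counted. Nes, Fabp7 and Prom1 each had 1 region within 2000 bp of their own start, and each was called in replicate 1 only.

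A single replicate called 37 of the 59 regions at the 8 genes, and a larger share, 40929 of 51271, in the whole series. Of the 15 regions called in replicate 1 alone, 5 were at a promoter of any gene (33.3%, 15.2 to 58.3%), compared with 1 of the 22 called in replicate 3 alone (4.55%, 0.807 to 21.8%), and these intervals overlap. In the whole series the shares were 28.7% and 7.69%. Each replicate is 1 library, so a difference between them was not tested. No region at the 8 genes was called in replicate 2 alone, and in the whole series 196 of 51271 were. These single-replicate peaks reached at most the percentile 85.7 in replicate 1 and 86.47 in replicate 3, with medians of 42.8 and 43.7. Replicates 2 and 3 also shared peak boundaries, as 5 of their 16 overlapping pairs of peaks at these genes began at the same base (31.2%), against 0 of 15 for replicates 1 and 2 and 0 of 21 for replicates 1 and 3. Over the whole series, the share was 34.5% for replicates 2 and 3, 0.922% for replicates 1 and 2, and 1.63% for replicates 1 and 3. Pairs with both ends the same made up 13.2%, 0% and 0.157% of these, and 2 of the 16 pairs of replicates 2 and 3 at the 8 genes (12.5%). A peak in every replicate, and an SD over n = 3, treat the lists as separate, and the part of these shared boundaries in the results was not tested.

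The DNA of the 15 regions was searched for the SOX words and POU octamers spelled out above, in 200 bp around the middle of each. A SOX word was present in 9 of 15 regions (60%, 35.7 to 80.2%), compared with 65.5% of all regions and 44.3% of windows of the same length 2000 bp to either side of them. Words of the form GACAA were present in 7 of 15 (46.7%, against 33.3% of all regions and 19.2% of their flanks) and words of the form AACAA in 5 of 15 (33.3%, against 48% and 31.7%). The POU octamer was present in 3 of 15 (20%, 7.05 to 45.2%), compared with 8.9% of all regions, 2.15% of their flanks and 1.96% of the 200 bp before the starts of protein-coding genes. In 30 flanking windows of the 15 regions themselves, any SOX word was present in 33.3% and the octamer in 0%. GACAA words were in 16.7% and AACAA words in 23.3% of these windows. The intervals of the 15 regions include the values of all regions for each of these words. A match is a description of the letters and not a measured binding site.

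In the Nes intron 2 region, GACAAA at 87778404 to 87778409 was followed after 8 bp by the octamer at 87778418 to 87778425, here read as ATTAGCAT on the plus strand. A second GACAAA, read as TTTGTC on the plus strand, was at 87778289 to 87778294, and GACAAT was at 87778636 to 87778641, beyond the printed stretch. The limit of 8 bp is the gap of this region itself, so its own match is given by that choice. A SOX word and an octamer separated by at most 8 bp within the 200 bp window were present in none of the other 14 regions, in 71 of all 5358 regions (1.33%) and in 0.177% of the flanks. The Msi2 region 231 kb from the start had both words 32 bp apart, off the middle of the region, and the one in intron 5 had the octamer without a SOX word. The upstream regions of Nes each had SOX words and no octamer.

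Among the others, the Slc1a3 region had 5 SOX words in its whole length and no octamer, and the Msi1 region 25.1 kb upstream had 4 and no octamer. The regions 31 kb upstream of Msi1 and near Pla2g1b had neither word anywhere in their length. The share of G and C in the 200 bp windows had a median of 51% at the 8 genes, with a range from 36 to 69.5%, and 49.5% over all regions.

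**Figure D3:**
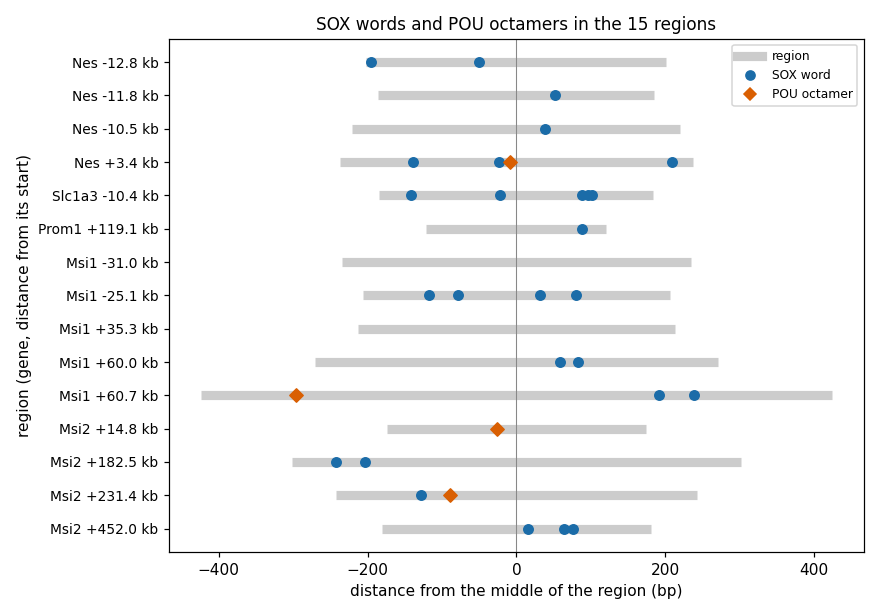
Positions of SOX words (circles) and POU octamers (diamonds) relative to the middle of each of the 15 regions in bp, with grey bars for the extent of the merged region. The Nes region at +3.4 kb has a SOX word and an octamer next to each other near its middle. The Msi1 regions at -31 and +35.3 kb have none of these exact words.

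Relatives of the 8 genes and other markers were counted by the same rule. Of 17 paralogs (intermediate filament, fatty acid binding, amino acid transporter and prominin genes), 4 had a region with a peak in every replicate, with 0.184 regions per 100 kb over the list. These were Des, Ina, Slc1a5 and Slc1a7, and the highest mean percentile was 95.44 in the window of Ina, an intermediate filament gene of neurons. The regions in the windows of Des, Ina and Slc1a5 lay nearer to the start of another gene. The paralogs Fabp3, Fabp4 and Fabp5 had none, as did Fabp7.

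Of 16 other markers of radial glia, neural stem cells and astroglia, 7 had such a region, with 0.62 per 100 kb. Hes5, a target of Notch signalling, had 4 regions (3.94 per 100 kb), and Sox2 and Sox9, which encode SOX transcription factors of neural progenitors, had 3 each. Pax6, Nr2e1 and Cdh2 had 1 and Ptprz1 had 2. Hes5 had the nearest start for 3 of its 4 regions, and another gene was nearer to the region of Nr2e1. The highest region in the window of Sox2 ranked 139, with percentiles of 99.13, 98.23 and 99.55, close to the Nes intron 2 region in each replicate. No such region was present for Hes1, Tnc, Hopx, Fut4, Itga6, Glul, Aldh1l1, S100b or Aqp4. The median gene of either list had 0 regions, as over all protein-coding genes, and the lists were not tested against one another.

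**Figure D4:**
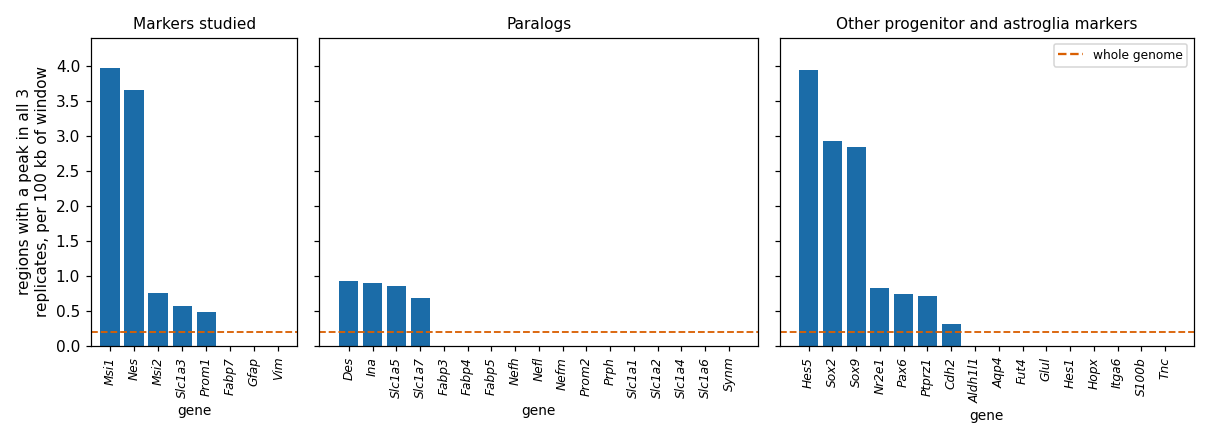
Regions with a peak in every replicate per 100 kb of window (bars) for the 8 markers, 17 paralogs and 16 other markers, with the whole genome at 0.202 as a dashed line. Msi1 (3.97), Hes5 (3.94) and Nes (3.66) have the highest values, Msi1 falls to 2.38 without its 2 regions on U4 genes, and Vim, Gfap and Fabp7 are at 0.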

How the data were processed

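NP cells were profiled by SOX3 ChIP-Seq in 3 biological replicates, sequenced as 50 bp single reads. The authors aligned reads to mm9 with Bowtie (version 1.0.0 per the submitters' processing notes) and called peaks per replicate with MACS (version not given in the sources used here), with bandwidth 300 and a p-value threshold of 1e-05 against the input. The deposited score of each peak is 10 times the negative log10 of that p-value, not normalized between replicates, so it shifts with depth, which is unknown.

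Peaks overlapping by at least 1 bp were merged. Genes came from GENCODE vM1, and sequences from NCBIM37, the assembly of mm9. A promoter was within 2000 bp of a protein-coding start, judged from the middle of a region. Multi-copy peaks had more than 50% of their 50-base sequences in more than 1 place. Intervals are 95% Wilson intervals and cover counting error only. They treat regions as independent, although several lay close together, and their overlap is not a test. No test was made, since no groups were compared.

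The named genes are the 8 markers, every region with a peak in each replicate, the nearest genes of the 3 regions above and below the Nes intron 2 region in rank, and any gene with a nearer start. Other regions are given by their counts and percentiles. Of 17 other markers, 16 matched the annotation (Sox1 did not), as did all 17 paralogs, and 1 further marker is not reported here. The markers and lists were chosen with earlier results of these data known. Alternatives were other windows, thresholds, overlaps, promoter distances and word windows, and each replicate left out. Merging and counting were tested on simulated data. Software comprised pysam 0.24.0, numba 0.67.0, numpy 2.4.6, matplotlib 3.10.9 and scipy 1.17.1 under Python 3.11.15.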

Additional observations from a re-analysis of the deposited data

How the results depend on the processing

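The number of markers with a region in every replicate, 5 as reported, was 2 with the gene body only, 3 with a window of 10 kb or with peaks at a p-value of 1e-10 or less (Slc1a3 and Prom1 lost their only region), and 4 with equal numbers of peaks (Prom1 lost its region). It was 5 to 6 with a replicate left out, as Gfap gained a region without replicate 1. The 15 regions became 4, 5 and 7 in those 3 settings, 8 when the marker had to be the nearest gene, and 15 to 21 with a replicate left out. The share of all protein-coding genes, 28.8%, was 8.83% with the gene body only, 14.1% with 10 kb, 42.2% with 100 kb, 15.2% at 1e-10, 21.9% with equal numbers of peaks, 25.9% with a reciprocal overlap of 50%, 25% without multi-copy peaks, and 29.4 to 39.4% with a replicate left out. The Nes intron 2 region ranked 147 to 166 with a replicate left out (149 of 5358 as reported, the top 2.78%), in longer lists. It was 159 of 7755 (2.05%) without replicate 1, 166 of 7899 (2.1%) without replicate 2 and 147 of 5448 (2.7%) without replicate 3. The share with a SOX word, 60%, was 33.3% in windows of 100 bp, 73.3% in windows of 400 bp and 80% over the whole region. Vim and Fabp7 had 0 such regions in each of these settings. The cause of the moves was not tested beyond the settings' own construction. Unknown depth limits what the missing peaks of replicate 2 can show. No paired analysis was possible because a single group was analysed and the results come from no test.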
